A study of Homo sapiens with 14 samples.

Results

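The MYC and PVT1 locus was examined for recruitment of the NF-κB subunits p50, p52, RelA and RelB in L1236, an established Hodgkin lymphoma cell line. The locus was taken as the window from 128700000 to 129500000 on chromosome 8 (hg18), and its members are the 24 of 14865 union regions that lie wholly inside it; 597 union regions lie on chromosome 8. A union region is a stretch of genome in which a ChIP-seq peak was called for at least 1 subunit, with overlapping peaks of different subunits joined. The members were thus selected by their calls, so the calls, fold enrichments and read counts given here describe the locus and are not tests of it. L1236 cells, for which no treatment is given, were the only material. Chromatin was immunoprecipitated in 2 replicates for each of the 4 subunits, and 6 input DNA libraries served as background. Both replicates of p50, of RelA and of RelB used the same antibody, but for p52 a mouse antibody was used in one replicate and a rabbit antibody in the other. Calls, fold enrichments and reads come from merged replicates of 1 cell line, so no error between replicates can be put on them, and the 2 replicates are seen only through the signal values described below.

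MYC encodes a basic helix-loop-helix transcription factor that drives growth, metabolism and cell division, and its deregulation is a hallmark of many lymphomas. PVT1, the gene that follows MYC on the chromosome, gives rise to long non-coding RNAs and several microRNAs, and the wide interval around it is known to hold enhancers that act on MYC. NF-κB factors bind DNA as dimers. RelA and RelB carry transactivation domains, p50 and p52 do not, p50 and RelA form the prototypic canonical dimer, and p52 and RelB form the prototypic non-canonical one.

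In the MYC and PVT1 locus, p50 and p52 accounted for nearly all of the called binding. A p50 peak was called in 20 of the 24 regions, a p52 peak in 19, a RelB peak in 4 and a RelA peak in 0. Over all union regions p50 was called in 73.8%, p52 in 73.3%, RelB in 26.8% and RelA in 3.31%. The locus shares were 83.3%, 79.2%, 16.7% and 0%, which differ from the genome-wide shares by only a few regions in each case, so the pattern of calls was close to that of the union as a whole. With 24 regions, 0 calls allow a RelA share of up to 12.5%, counting error only, and a share at the genome-wide level could not be told from 0 at this number of regions.

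Both p50 and p52 were called in 15 of the 24 regions (62.5%), against 51.4% of all union regions. The calls fell into 4 patterns. The commonest was p50 with p52 and no other subunit, in 11 regions, a pattern held by 31.8% of all union regions. p50 alone was called in 5 regions (21.2% of all union regions) and p52 alone in 4 (19.8% of all union regions). p50, p52 and RelB were called together in 4 regions, a pattern of 17.1% of all union regions. All RelB calls of the locus therefore lay where p50 and p52 were called too. This was also common elsewhere: of the 3984 union regions called for RelB, 2539 were called for p50, p52 and RelB without RelA. Whether the 4 regions of the locus differ from this was not tested. No region of the locus was called for all 4 subunits, which follows from the lack of RelA calls there.

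The regions are numbered 1 to 24 along the chromosome and placed by the distance of their centre from the centre of region 1. Region 1 (chr8:128816175-128817155) overlaps the transcription start site (TSS) of ENSG00000136997, which is the Ensembl identifier of MYC from general knowledge, since the files used here do not pair identifiers with symbols. It is the only one of the 24 regions that the authors' annotation lists as touching a gene. This does not place the others outside PVT1, whose extent was not determined here. The next region lay 117 kb downstream. Regions 4 to 23, 20 in all, then followed each other with gaps of 3 to 18055 bp (median 4841 bp) and filled a stretch of 160 kb from 129030773 to 129191215, that is from +214 to +375 kb. Region 24 stood apart from them by 268 kb, at +643 kb. The regions just outside the window were far away. On the MYC side, 1.35 Mb from region 1, chr8:127467253-127467767 was called for RelB alone, with a fold enrichment of 4.53. On the other side, 1.56 Mb beyond region 24, chr8:131020644-131021946 was called for p50 alone, with a fold enrichment of 14.8.

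**Figure D1:**
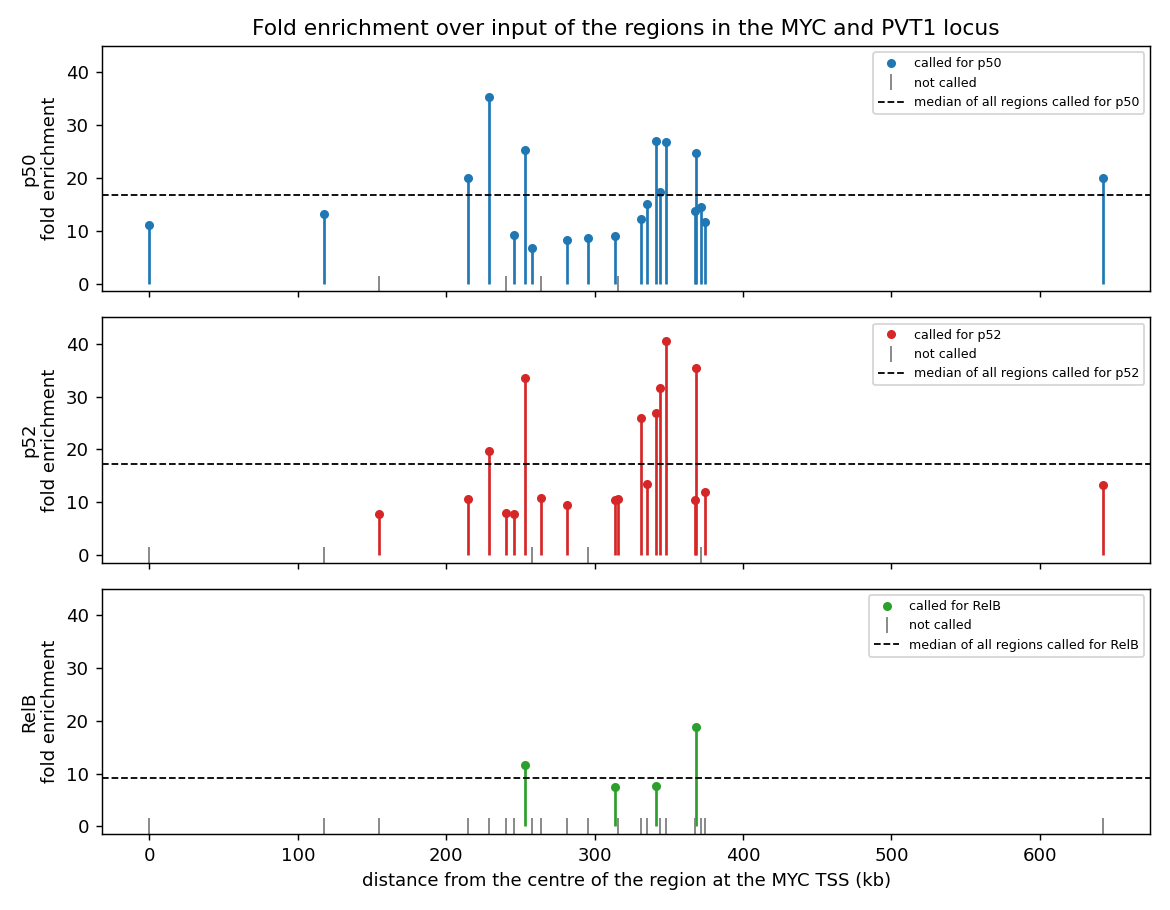
Fold enrichment over input (y axis) of each region called for p50, p52 or RelB against its distance in kb from the centre of the region at the MYC TSS; grey ticks mark regions not called, and dashed lines give the median of all regions called for that subunit (16.8, 17.2 and 9.08). Calls crowd between +214 and +375 kb, and the tallest values are 35.4 for p50, 40.6 for p52 and 18.8 for RelB.

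Nearest-gene assignment left the MYC identifier with 1 of these regions. The authors' table gives for 22 regions ENSG00000184090 as the closest TSS, and for region 2 ENSG00000214789. The listed distances place the first of these TSSs at 129029462 on the minus strand, in a gene of 417 bp, and the second at 128875961 on the plus strand, in a gene that ends at 128893866 and starts 59.3 kb downstream of the centre of region 1. The table gives no gene symbols, and which regions lie inside PVT1 was not determined, since no hg18 gene model was used here. For the 23 regions away from a TSS the median distance to the listed TSS was 100459 bp, and 22 regions were more than 10 kb from it. Among all 9262 union regions at more than 10 kb from a TSS, 27.1% were called for RelB and 3.08% for RelA. The 22 distant regions of the locus had 4 RelB calls and 0 RelA calls.

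At the MYC TSS itself, p50 was called alone. Region 1 had a p50 fold enrichment of 11.1, with a pileup of 41 fragments at the summit and signal values of 126 and 172 in the 2 replicates. Its read count was 81 in the p50 ChIP, 50 in the p52 ChIP and 12 in each of the RelB and RelA ChIPs. p50 alone was the pattern of 42.2% of the 2447 union regions that overlap a TSS, so the pattern at MYC was a common one. Among the 1033 TSS regions called for p50 alone, the median p50 fold enrichment was 13.3, and 27.8% of them were weaker than the MYC region. Its 51.0 p52 reads per kb lay above their median of 39.0, while its 12.2 RelB and 12.2 RelA reads per kb lay below their medians of 16.9 and 18.3.

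Region 2 (chr8:128934231-128934987, +118 kb) was also called for p50 alone, at a fold enrichment of 13.2. Region 3 (chr8:128971338-128971744, +155 kb) was called for p52 alone, at 7.75. These are the only calls between the MYC TSS and the dense stretch. The region nearest to any other TSS was region 4 (chr8:129030773-129032113), 1311 bp from the TSS of ENSG00000184090 and at the edge of the dense stretch. Its fold enrichment was 19.9 in the p50 and 10.5 in the p52 ChIP, the subunits called there, and it held 185 p50, 117 p52, 26 RelB and 30 RelA reads.

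The strongest regions of the locus lay in the dense stretch, and they were not the same for each subunit. For p50 the highest fold enrichment was that of region 5 (chr8:129044455-129045942, +229 kb), at 35.4 with a pileup of 179. Of all p50 regions, 89.0% were weaker. Its p52 fold enrichment was 19.7, and it held 343 p50 reads against 180 p52 reads. The p50 lead of region 5 was seen in only 1 of the 2 signal values, which were 2483 and 640. By the other signal value region 8 led, with 1395 and 1417.

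For p52 the highest fold enrichment was that of region 19 (chr8:129164451-129165753, +348 kb), at 40.6, with 89.7% of all p52 regions below it. Its p50 fold enrichment was 26.7. Its p52 signal values were 1154 and 1506. By pileup and by both signal values region 8 led for p52, with a pileup of 206 against 148 and signal values of 1301 and 2337, while its fold enrichment was 33.6. For RelB the highest fold enrichment was that of region 21 (chr8:129184680-129185774, +369 kb), at 18.8, with 89.0% of all RelB regions below it. Region 21 was strong for p50 and p52 too, at 24.7 and 35.4.

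The 4 regions called for RelB differed in their p50 and p52 values. Regions 8, 17 and 21 had p50 fold enrichments of 25.4, 26.9 and 24.7 and p52 fold enrichments of 33.6, 26.8 and 35.4. Region 13 (chr8:129129921-129131104, +314 kb) was weak for both, at 8.98 and 10.4. The RelB fold enrichments were 11.6 in region 8 (chr8:129068913-129070359, +253 kb), 7.45 in region 13, 7.58 in region 17 (chr8:129157721-129159022, +342 kb) and 18.8 in region 21. Their RelB signal values were 245 and 742, 77.1 and 354, 148 and 282, and 303 and 1147. The second value was the higher in each, as in 72.8% of all RelB regions.

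RelB reads did not follow the RelB calls throughout. Called regions held 43.0 to 82.2 RelB reads per kb and uncalled regions 5.00 to 83.7, so the 2 sets overlapped. The overlap came from region 19, which held 109 RelB reads, more than any other region of the locus, and was not called. Its 83.7 reads per kb exceeded the value of 86.5% of all regions called for RelB. The other uncalled regions reached at most 32.9 reads per kb, in region 5, below all 4 called ones. A level of 22.5 reads per kb, the 5th percentile of all regions called for RelB, was reached by 11 of the 24 regions, 7 of them uncalled. Uncalled regions at this level were 27.3% of those over the genome and 7 of 20 in the locus.

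RelA reads were low over the locus. In the paper's library checks the RelA libraries had a lower normalized strand cross-correlation, a measure of ChIP enrichment, than those of the other subunits. The part of this in the low RelA reads and missing RelA calls was not tested. Each region held 4 to 40 RelA reads, or 7.80 to 30.0 per kb with a median of 19.6. All 24 regions lay below the 25th percentile of the regions called for RelA, the highest being region 14 at percentile 24.2. The 5th percentile of called RelA regions, 22.3 reads per kb, was reached by 6 of the 24 regions and by 20.3% of the uncalled regions over the genome. In the 4 regions called for RelB, RelA was at 16.0 to 20.7 reads per kb, inside the range of the other 20 regions. The RelA median of the locus was 1.25 times the median of all union regions (15.6), and the local background of the other subunits, given below, was raised by a like factor. The part of that background in the RelA reads was not tested.

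**Figure D2:**
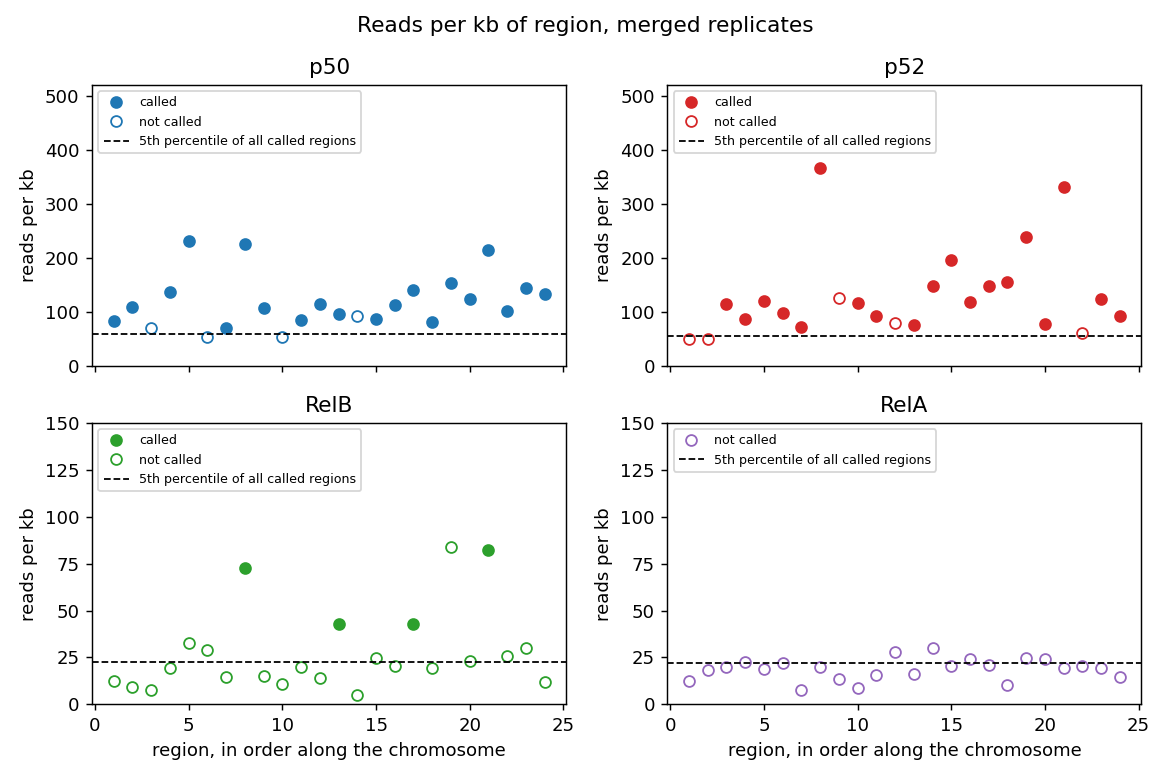
Reads per kb of region (y axis) for each subunit in the 24 regions in their order along the chromosome, with called regions filled, uncalled regions open, and the 5th percentile of all called regions of the subunit dashed. Region 19 stands out as an uncalled region with 83.7 RelB reads per kb, and the RelA values stay at or under 30.0.

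p50 and p52 were compared within the regions. In the 15 regions called for both, the p52 fold enrichment was the higher in 8 and the p50 fold enrichment in 7. The median log2 ratio of p52 to p50 was 0.01, with a range of -0.92 to 1.08, and by pileup it was -0.13, so neither subunit led over the locus as a whole. Over all 7643 regions called for both the median was 0.12 with quartiles of -0.36 and 0.55. Quartiles leave out the outer regions by definition, so the range of the locus cannot be set against them. The summits lay close together, 1 to 45 bp apart with a median of 9 bp, against a median of 11 bp over all such regions.

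Read counts gave a finer view of this balance. Over all union regions p52 supplied 52.3% of the reads of p50 and p52 together, and over the locus 53.0% (95% exact binomial interval 51.7% to 54.2%). Such intervals cover counting error only. The total is a single share, and the shares of single regions, which rest on fewer reads, varied around it. In 7 regions the interval of the p52 share lay above the union share, in 9 below it, and in 8 it held it. The same count was not made over all union regions, so it is not read as a trait of the locus. The calls rest on the same reads, so the place of regions called for 1 subunit alone is partly given by the call. Among regions called for both, region 15 (chr8:129146761-129148701, +331 kb) had the highest p52 share, 69.1% (65.04% to 72.9%), from 380 p52 and 170 p50 reads. Region 5 had the lowest, 34.4% (30.4% to 38.7%). Region 9 (chr8:129074577-129075099, +258 kb) was called for p50 alone at a fold enrichment of 6.78, yet held 66 p52 and 56 p50 reads.

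The balance changed over short distances. Regions 20 (chr8:129183809-129184676) and 21 are separated by 3 bp, with p52 summits 932 bp apart. The p52 share was 38.5% (31.2% to 46.2%) in region 20 and 60.5% (56.5% to 64.5%) in region 21, and the intervals do not overlap. RelB was called in region 21, with 90 reads, and not in region 20, with 20 reads. Region 22 (chr8:129187542-129188946), the next one, was called for p50 alone. Its p52 share of 37.7% (31.4% to 44.3%) was on the p50 side, which is partly given by that call. On the MYC side of regions 20 to 22, regions 15, 18 and 19 had p52 shares of 69.1%, 65.6% and 60.7%, with intervals above the union share. Regions 16 and 17, interspersed with them, had 51.1% and 51.5%, with intervals that held the union share. Between regions 5 and 15 the balance went both ways. Regions 6, 8 and 10 had p52 shares of 64.5%, 61.9% and 68.4%, with intervals above the union share, regions 12 and 13 had 41.2% and 44.4%, with intervals below it, and the intervals of regions 7, 9, 11 and 14 held it. Towards MYC, regions 1, 2, 4 and 5 were on the p50 side, at 38.2%, 31.4%, 38.7% and 34.4%, each with an interval below the union share. Region 3 between them had 61.8% (49.98% to 72.8%), an interval that held it. Regions 1, 2 and 12 were called for p50 alone and regions 6 and 10 for p52 alone. The side on which these lay is thus also partly given by the call.

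**Figure D3:**
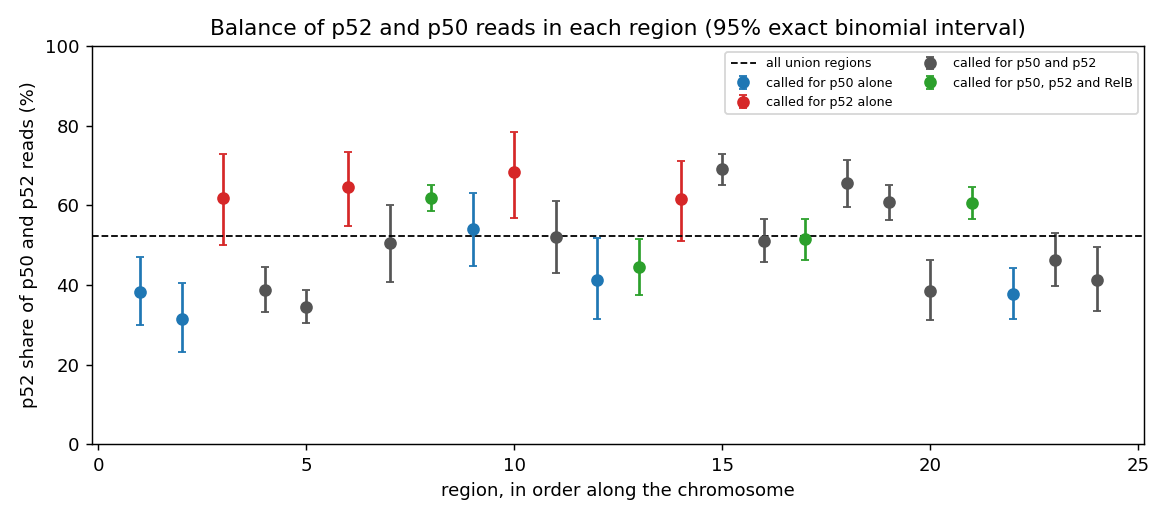
Share of p52 among the p50 and p52 reads (y axis, percent, with 95% exact binomial intervals) in each of the 24 regions in order along the chromosome, coloured by the pattern of calls; the dashed line is the share over all union regions, 52.3%. Shares range from 31.4% in region 2 to 69.1% in region 15, and neighbouring regions 20 and 21 lie on opposite sides of the line.

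The regions called for p52 alone were short and weak. Their widths were 400 to 720 bp and their p52 fold enrichments 7.75, 7.96, 10.9 and 10.7 in regions 3, 6, 10 and 14. Those called for p50 alone were 498 to 1405 bp wide with p50 fold enrichments of 6.78 to 14.6. Regions called for p50, p52 and RelB were 1095 to 1447 bp wide, and those called for p50 and p52 687 to 1941 bp. A union region joins overlapping peaks, so it is at least as wide as each peak it holds. The median width of the 24 regions was 925 bp, against 863 bp over all regions.

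As measured by fold enrichment, most regions of the locus were weaker than the typical region of the same subunit. The median fold enrichment was 14.1 for p50 (all regions 16.8) and 11.8 for p52 (all regions 17.2). For RelB it was 9.59 (all regions 9.08). Only 8 of 20 p50 regions, 7 of 19 p52 regions and 2 of 4 RelB regions exceeded the median of all regions. Ranked among all called regions of their subunit, the median p50 region of the locus stood at percentile 36.0, the p52 one at 21.7 and the RelB one at 52.2. By pileup, the height before division by the background, these percentiles were 53.0, 36.7 and 65.8, and 12 of 20 p50 regions exceeded the pileup median of 57.

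Fold enrichment was taken as pileup divided by local background, although the exact formula behind the deposited values is not stated. The local background was therefore estimated as pileup over fold enrichment. It had a median of 4.46 in the p50 regions of the locus, against 3.36 over all p50 regions, and exceeded the latter in 20 of 20. For p52 it was 4.12 against 3.09, higher in 19 of 19, and for RelB 3.66 against 2.89, higher in 4 of 4. The ratios were 1.33, 1.33 and 1.26. Whether the subunits were set against the same input libraries is not stated, so these are not taken as independent measurements. The raised background was not particular to the locus. In bins of 5 Mb along chromosome 8, the p50 median was 2.42 to 2.91 in the 9 bins of the first 45 Mb, 4.38 in the bin that holds the locus, and 3.85 to 4.08 in the 4 bins beyond it. The bin of the locus was the highest of the 26 bins with at least 5 p50 regions, but 20 of its 30 p50 regions are those of the locus. The other 10 regions of that bin had a median of 4.18 (2.98 to 5.59), which also exceeded the medians of the 25 other bins. Counted with the locus, 30 of 513 bins over the genome with at least 5 p50 regions (5.85%) were higher than 4.38. Copy number was not measured here, and its part in this background was not tested.

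**Figure D4:**
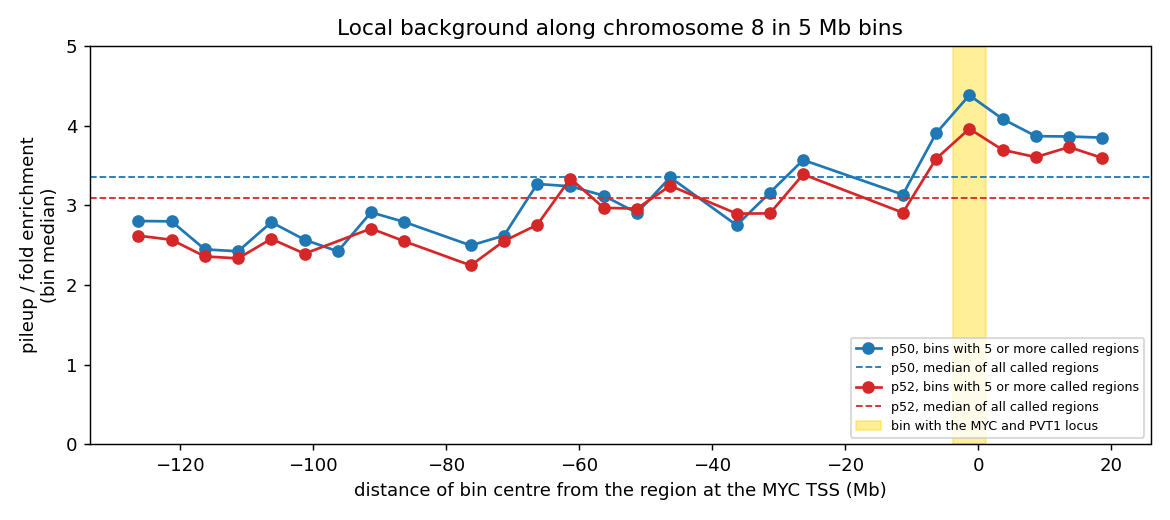
Median local background (pileup over fold enrichment, y axis) of p50 and p52 regions in 5 Mb bins along chromosome 8 against the distance in Mb from the region at the MYC TSS; dashed lines give the medians of all called regions (3.36 and 3.09). The bin with the locus is shaded and reaches 4.38 for p50, and the bins to its right stay above both dashed lines.

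The number of regions in the locus was high for its length. When the genome was divided into 3848 windows of 800 kb, the median window held 2 regions, and 18 windows (0.468%) held 24 or more, among them the one with this locus. The fullest window held 33. In the other 17 dense windows, p50 was called in a median of 88.0% of regions, p52 in 60.0%, RelB in 28.0% and RelA in 3.85%. The MYC and PVT1 locus, with 79.2%, had a higher share of p52 calls than 12 of them. Its 62.5% of joint p50 and p52 calls exceeded the share of 13, and its p50 share of 83.3% that of 6. The windows starting at chr4:48800001, chr10:41600001 and chr16:44800001 were among those exceeded in each of these shares. In them p50 was called in only 0%, 7.41% and 24.0% of regions, and RelB in 100%, 100% and 72.0%. The RelB share of the locus, 16.7%, exceeded that of 4 of the 17. In 6 of the 17, the chr4 window among them, RelA was not called either. The locus was chosen with this density in view, so its rank is a description.

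**Figure D5:**
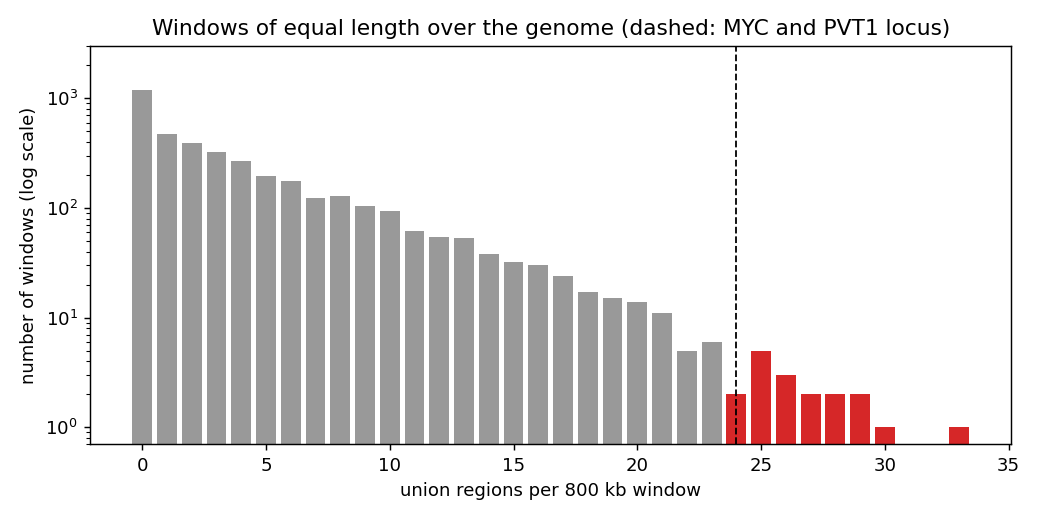
Number of 800 kb windows (y axis, log scale) that hold a given number of union regions (x axis), with windows of 24 or more regions in red and the count of the MYC and PVT1 locus dashed. Only 18 of 3848 windows reach 24 regions.

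The agreement of the replicates was measured as the IDR, the irreproducible discovery rate. Like an FDR, it estimates the share of irreproducible peaks among those kept at that value. It was at most 0.00991 for p50, 0.00966 for p52 and 0.00677 for RelB in the locus. No peak of the whole table exceeds 0.01, so the least reproducible p50 and p52 regions of the locus lay close to the highest value that was kept. The 2 signal values of a region were compared across the locus, with a Spearman correlation of 0.87 over the 20 p50 regions and 0.72 over the 19 p52 regions, which share their libraries and were selected for agreement by the IDR. The second p52 value exceeded the first in 17 of 19 regions, as in 90.9% of all p52 regions. The table does not tell which value belongs to which p52 antibody.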

How the data were processed

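The deposited table of 14865 union regions was used, without the reads themselves. Reads were mapped by the authors to hg18 with Bowtie and kept where unique, and duplicates were removed with SAMtools. The paper states that all libraries were reduced to a common size, and peaks were called with MACS. Both RelB libraries are listed with fewer mapped reads than that size, so their depth stayed below it. The read counts deposited are whole numbers of reads per region from merged replicates, not normalized, with totals over all regions of 1810792 (p52), 1654137 (p50), 470788 (RelB) and 315151 (RelA). Whether they were counted before or after the reduction is not stated. The deposited fold enrichment is a ratio of ChIP to input at the summit, and the deposited pileup is a signal, the fragment coverage there. The authors gave the IDR as a fraction and the FDR as a q-value, with limits of 0.05 on both, although no IDR in the table exceeds 0.01. The deposited signal values are a score per replicate on a scale that is not stated. Distances to genes and TSSs are the authors', from their Ensembl annotation.

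From these values reads per kb, percentiles among all called regions, pileup over fold enrichment and read shares with 95% Clopper-Pearson intervals were computed. The signs of the distances run along the gene's strand: of the genes with 2 or more regions, 1340 gave 1 TSS as plus-strand genes, 1262 as minus-strand genes and 0 gave none, and the TSSs were placed accordingly. No test was made, since replicates are merged and regions are not replicates. Described in full by rule were the regions nearest the MYC TSS and nearest another TSS, the strongest of each subunit, any called for RelA or for all 4 subunits, and the first on each side outside; others were singled out after their values were seen. The members and lists were chosen with earlier results of these data known. The table holds 8450 gene identifiers without symbols, and 0 matched the RefSeq gene list. Of a list of 12 MYC network genes 1, MYCL1, was paired with an identifier by a table, and the identifier of MYC itself was taken from general knowledge. The interval and the TSS placement were tested on simulated data. Calculations ran in Python 3.11.15 with scipy 1.17.1, pandas 2.3.3, numpy 2.4.6 and, for drawing, matplotlib 3.10.9.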

Additional observations from a re-analysis of the deposited data

How the results depend on the processing

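Of 47 alternatives 34 kept the value within 1.5 times for counts or within the spread of the replicate signal values. The 34 include settings, named below, that could not change the counts of called regions. The median log2 ratio of p52 to p50, 0.01 by fold enrichment, changed sign to -0.13 by pileup and -0.06 by scaled reads, both within that spread, so it has no stable direction. The counts of called regions stayed within 1.5 times in a window narrowed by 100 kb on each side, with 19 p50 and 18 p52 regions. A fold enrichment of 5 or more, an FDR limit of 1e-05 and a window widened by 100 kb could not change them. The lowest fold enrichment called in the locus was 6.78 and the highest FDR 1.74e-15, and the nearest outside region was 1.35 Mb away. An IDR limit of 0.01 changes nothing by construction, since the whole table lies below it. With reads per kb at the 5th percentile of called regions in place of the call, chosen after the data were seen, RelA had 6 regions and RelB 11. The median percentile for p50 was 53.0 by pileup and 50.9 and 44.2 by the signal values, for p52 36.7, 33.6 and 36.2, and for RelB 65.8 by pileup and 68.8 by the second signal value. In the window narrowed by 100 kb the p52 median fold enrichment was 11.3. The local background ratio was 1.33 with p52 and 1.26 with RelB values. No paired analysis was possible because the values come from merged replicates, and for the same reason no replicate could be left out beyond the signal values. RelB and RelA reads were few, 2 to 109 and 4 to 40 per region, which limits the precision of their values. How weak a site could have been called was not tested.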

Other observations

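The 12 genes of the MYC network considered were MYC and its relatives, its partner MAX, MAX-binding repressors, MLX and MLXIP. Only MYCL1 was paired with an identifier by a table used here, and 2 union regions had it as their closest gene or TSS. p50 was called in both, p52 in 1, RelB in 1 and RelA in 0.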
